A study of Mus musculus with 4 samples.

Results

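The response of the control mouse heart to transverse aortic constriction (TAC) was measured by RNA sequencing as the difference, gene by gene, between 2 whole-heart libraries. TAC is an operation that narrows the aortic arch, so that the left ventricle has to pump against a raised pressure. The CT TAC library came from 1 control (CT) mouse kept for 4 weeks under TAC, and the CT baseline library from 1 CT mouse at baseline. Both mice were 3 months old, of the C57BL/6 strain and of the genotype WW45 flox/flox, which means that both copies of WW45, the Hippo pathway gene listed as Sav1, were flanked by loxP sites while no Cre was present to remove them. The series holds 2 more libraries, cKO TAC and cKO baseline, from mice that carried the same floxed gene together with an alpha-MHC-Cre transgene, which is expressed in cardiomyocytes. All 12408 genes in the deposited tables were used. Each table gives the same genes, and each of those genes exceeded 1 CPM (a read count scaled to the depth of its library) in at least 2 of the 4 libraries.

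With 1 mouse a group and no sham-operated mouse, the comparison is between 2 libraries. Differences between any 2 mice, the effects of the operation itself and the effects of the load cannot be told apart, and no p-value is given. The log2 ratio of a gene is its deposited log2 CPM value in CT TAC minus that in CT baseline, so a positive ratio means a higher level in CT TAC. Around each ratio stands a 95% counting interval, computed from the reads recovered from the deposited values. It allows for counting error alone and not for differences between mice. Copies of 1 molecule made by PCR are counted as separate reads, which the interval does not allow for either. A gene is called higher or lower where the deposited values were at least 2-fold apart and the interval excluded 1.

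Pressure overload is known to set off a growth program in the adult ventricle. Cardiomyocytes enlarge, re-express genes of the fetal heart such as the natriuretic peptides and skeletal alpha-actin, and shift their fuel use from fatty acids towards glucose, while fibroblasts lay down collagen and other matrix proteins. Calcium cycling through the sarcoplasmic reticulum and the potassium currents that end the action potential are commonly reduced in hypertrophied and failing hearts.

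The recovered reads totalled 2064655 in CT TAC and 2796547 in CT baseline, and 1772153 in cKO TAC and 1587840 in cKO baseline. The median gene had 36.6 reads in CT TAC and 48.0 in CT baseline, and 1969 genes (15.9%) had a read number that was not whole in at least 1 of these 2 libraries. These are given below as genes with fractional reads, and the origin of the fractions was not tested. The 14 cardiomyocyte markers were all listed and took 15.4% of the reads in both libraries. Among 4158 genes with at least 50 reads in every library, the standard deviation of the log2 difference was 0.56 between CT TAC and CT baseline, 0.39 between the 2 TAC libraries, 0.40 between the 2 baseline libraries and 0.43 between cKO TAC and cKO baseline. The CT pair thus lay further apart than the cKO pair, with 6.59% of these genes at least 2-fold apart in the CT pair and 2.55% in the cKO pair.

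Of the 12408 genes, 1330 (10.7%) were called in the CT pair. They were 750 higher in CT TAC, 6.04% of all genes, and 580 lower, 4.67%. Each count from a gene list below is to be read beside these shares. The lists were chosen with earlier results of these data known, so a list share above or below them is a description and not a test. A further 755 genes were at least 2-fold apart with an interval that included 1. The median log2 ratio of all genes was 0.01, and 90% of genes lay between the 5th percentile of -1.21 and the 95th of 1.35. Large ratios were more frequent in the upward direction, with 185 called genes at least 4-fold higher and 105 at least 4-fold lower, and with 15 at least 16-fold higher against 2 at least 16-fold lower. The 15 genes with the highest lower bounds of the interval were, in order, Thbs4, Cilp, Postn, Nppa, Comp, Wisp2, Fmod, Ltbp2, Acta1, Cthrc1, Sumo2, Atp6v0a4, Col3a1, Ankrd1 and Sfrp2, of which 9 encode matrix or matricellular proteins. At the other end stood, among others, Lrrc52, Gm20594, Gbp6, Ces1d, Gbp10, Usmg5, Dhrsx, Slc10a6, Acot2, Scand1, Pdk4, Lrg1, Pik3r1 and Cdo1, a group with fewer common functions, in which Ces1d, Acot2 and Pdk4 act in lipid or sugar metabolism.

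**Figure D1:**
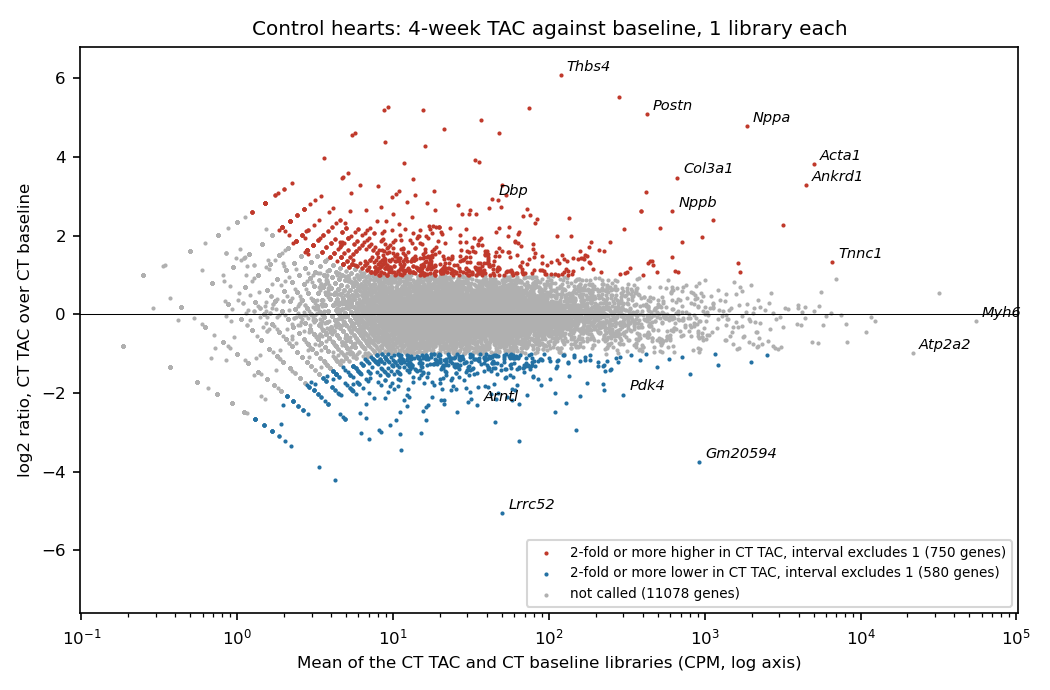
Each point is a gene, with the mean level of the CT TAC and CT baseline libraries on a logarithmic x axis (CPM) and the log2 ratio of CT TAC over CT baseline on the y axis. Red points are the 750 genes called higher, blue points the 580 called lower, and Thbs4, Postn, Nppa and Acta1 stand at the upper edge while Gm20594 and Lrrc52 stand at the lower edge.

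The natriuretic peptides and the stress genes of cardiomyocytes held some of the highest ratios in the pair. Of the 28 listed stress and fetal genes, 13 were called higher and 1 lower, with a median log2 ratio of 0.96 against 0.01 for all genes. Their summed level was 42546 CPM in CT TAC and 15294 CPM in CT baseline, which is 4.13% and 1.48% of the reads. Nppa, which encodes atrial natriuretic peptide, had 7201 reads in CT TAC (3594 CPM) against 349 in CT baseline (129 CPM), a ratio of 27.7 (interval 24.95 to 31.0). Nppb, which encodes brain natriuretic peptide, lies next to it on chromosome 4 and had 1066 CPM in CT TAC and 171 CPM in CT baseline, a ratio of 6.23 (5.64 to 6.91), with fractional reads. The genes that process, bind and degrade these peptides did not follow the ligands. Corin, the protease that activates pro-atrial natriuretic peptide, had 342 CPM in CT TAC and 607 CPM in CT baseline (log2 ratio -0.82, not called). Furin, a convertase that cleaves the precursor of brain natriuretic peptide, was called lower at 124 CPM in CT TAC and 286 CPM in CT baseline (log2 ratio -1.20). Mme, which encodes neprilysin, a peptidase that degrades natriuretic peptides, was also lower, with 5 reads in CT TAC and 26 in CT baseline. The receptor genes Npr1 (log2 ratio 0.18), Npr2 (-0.36) and Npr3 (-0.67) were not called.

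The remaining stress genes differed in size and direction. Acta1, which encodes skeletal alpha-actin, had 18726 reads in CT TAC (9347 CPM) and 1782 in CT baseline (661 CPM), a ratio of 14.1 (13.5 to 14.9). Ankrd1, which encodes a stretch-responsive ankyrin repeat protein of the titin complex and the nucleus, had 8081 CPM in CT TAC and 827 CPM in CT baseline, a ratio of 9.77 (9.35 to 10.2). These 2 genes were among the 4 largest gains of level in the whole table, with Actc1 and Tnnc1. Nmrk2, a nicotinamide riboside kinase of striated muscle, had 35 reads in CT TAC and 1 in CT baseline, a ratio of 20.9 with a wide interval (7.92 to 1914). Xirp2, an actin-binding protein of the intercalated disc, was 4.81-fold higher (4.62 to 5.01). Ctgf, a matricellular growth factor, was 3.57-fold higher, Gdf15, a stress cytokine, 4.21-fold, and Rcan1, a calcineurin regulator, 2.39-fold. Ptgds, a prostaglandin D synthase, was the only called gene of the list that was lower, at 418 CPM in CT TAC and 1193 CPM in CT baseline. Several classic members of the program were not called. Myh7, the slow myosin heavy chain, had 6611 CPM in CT TAC and 4459 CPM in CT baseline (log2 ratio 0.57), Csrp3, the muscle LIM protein, had a log2 ratio of 0.54, Xirp1 0.07, Fhl2 0.05 and Acta2, the smooth muscle actin, -0.32.

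**Figure D2:**
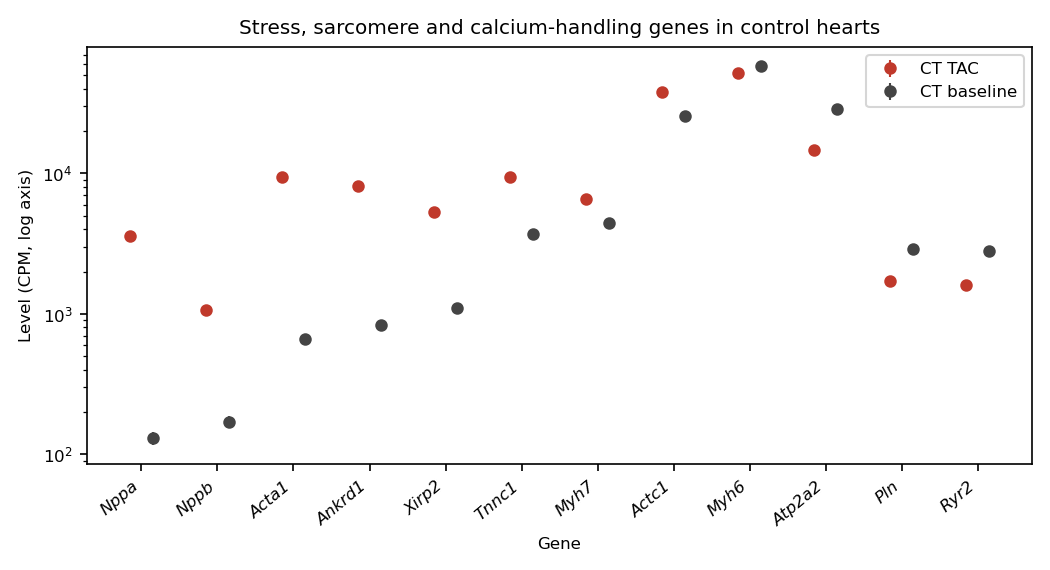
Levels in CPM on a logarithmic axis for 12 genes, with CT TAC (red) left of CT baseline (dark grey). The bars, mostly smaller than the points, are 95% Poisson intervals of the read counts. Nppa, Nppb, Acta1, Ankrd1 and Xirp2 lie far above CT baseline in CT TAC, while Myh6 is nearly level and Atp2a2, Pln and Ryr2 lie below it.

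The proximal promoters of Nppa, Nppb, Acta1 and Ankrd1 are shown because these are widely used stress genes of the heart, all called higher, and because TEAD and GATA factors are known to act at several of them. The 250 bases before the RefSeq start are given 5′ to 3′ on the strand of the gene (GRCm38.p6). They lie at chr4:148000472-148000721 on the plus strand for Nppa, chr4:147985650-147985899 on the plus strand for Nppb, chr8:123894776-123895025 on the minus strand for Acta1 and chr19:36119845-36120094 on the minus strand for Ankrd1. Capitals mark the TEAD core CATTCC, the GATA core GATAA (both on either strand) and the CArG box, to which serum response factor binds.
Nppa: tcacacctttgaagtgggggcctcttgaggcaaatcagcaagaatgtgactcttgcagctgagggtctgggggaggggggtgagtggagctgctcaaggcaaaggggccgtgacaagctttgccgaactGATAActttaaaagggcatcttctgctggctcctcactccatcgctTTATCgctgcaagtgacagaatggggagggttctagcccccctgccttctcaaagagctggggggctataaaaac
Nppb: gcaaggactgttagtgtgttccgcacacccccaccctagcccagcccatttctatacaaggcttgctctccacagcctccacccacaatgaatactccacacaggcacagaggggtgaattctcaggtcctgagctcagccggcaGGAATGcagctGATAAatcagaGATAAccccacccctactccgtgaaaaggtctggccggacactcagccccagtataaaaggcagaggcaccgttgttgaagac
Acta1: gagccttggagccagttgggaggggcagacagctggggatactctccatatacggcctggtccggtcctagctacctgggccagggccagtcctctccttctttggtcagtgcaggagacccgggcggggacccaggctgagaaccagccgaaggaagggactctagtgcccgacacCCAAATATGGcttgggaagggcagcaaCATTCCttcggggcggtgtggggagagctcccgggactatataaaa
Ankrd1: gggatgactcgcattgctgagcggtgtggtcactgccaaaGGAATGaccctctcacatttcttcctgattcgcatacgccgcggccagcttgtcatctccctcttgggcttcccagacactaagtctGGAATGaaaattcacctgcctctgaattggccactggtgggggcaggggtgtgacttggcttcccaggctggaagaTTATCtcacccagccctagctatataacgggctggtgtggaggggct
The TEAD core was present in the Nppb, Acta1 and Ankrd1 windows, 105 bases before the start in Nppb, 46 in Acta1 and 210 and 123 in Ankrd1. GATA cores were found in Nppa, Nppb and Ankrd1, and the only CArG box of the 4 windows was in Acta1, 73 bases before the start. Such matches are common. A TEAD core was present in 13.1% of 710 windows of genes called higher, 12.6% of 605 windows of genes called lower and 10.9% of 12210 windows of all listed genes, and a GATA core in 16.1%, 14.6% and 14.6% of the same windows. A CArG box was present in 1.55% of windows of genes called higher (11 windows), 0.661% of those called lower (4 windows) and 1.2% of those of all listed genes. Of the 12408 listed genes, 9522 had a window.

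The contractile apparatus differed little by its median gene, while its share of reads was 19.8% in CT TAC and 17.0% in CT baseline. Of 58 listed sarcomere genes, 6 (10.3%) were called higher and 0 lower, against 6.04% and 4.67% of all genes, and the median log2 ratio was 0.05. None of the 16 thick filament and M-band genes was called. Myh6, the main myosin heavy chain of the adult mouse ventricle, had 51827 CPM in CT TAC and 57903 CPM in CT baseline (log2 ratio -0.16), and Myl2, the ventricular regulatory light chain, 9117 and 12488 CPM in the same order (-0.45). In the thin filament, Tnnc1, which encodes cardiac troponin C, was called higher at 9372 CPM in CT TAC and 3701 CPM in CT baseline (ratio 2.53, 2.47 to 2.60), while its partners Tnni3 (log2 ratio -0.04) and Tnnt2 (-0.28) were not called. Lmod3, a leiomodin that nucleates and lengthens thin filaments, was 2.80-fold higher (2.41 to 3.28), with 522 reads in CT TAC and 250 in CT baseline. Acta1, described above, was also higher. Actc1, with the largest gain of level of any gene, had 37744.7 CPM in CT TAC and 25700.5 CPM in CT baseline (log2 ratio 0.55, not called). Titin (Ttn, -0.06) and alpha-actinin (Actn2, 0.02) had ratios near 0. In the Z-disc, Xirp2, Synpo2l (ratio 3.31) and Pdlim1 (2.05) were higher, and Cryab, a small heat shock protein that binds desmin and titin, stayed under 2-fold (9094 CPM in CT TAC, 4898 CPM in CT baseline).

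Isoform balance was compared within each library per exon length, for pairs of genes chosen after their values were seen. The length is that of all annotated exons of a gene merged, which can exceed the length of the transcripts present. The size of each share, here and below, depends on that choice, and its interval allows for counting error alone. Acta1 made up 20.7% (exact interval 20.4 to 20.95) of the summed Acta1 and Actc1 level in CT TAC and 2.64% (2.52 to 2.76) in CT baseline. The same share was 10.4% in cKO TAC and 7.50% in cKO baseline. Myh7 made up 9.06% (8.91 to 9.21) of the summed Myh7 and Myh6 level in CT TAC and 5.67% (5.57 to 5.77) in CT baseline, so the adult isoform stayed dominant in both. The actin genes have closely similar coding sequences, as have the myosin genes, and how reads matching both were assigned is not given in the sources used here.

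Cytoskeletal genes were higher more often than genes at large, with 9 of 49 (18.4%) called higher and 1 (2.04%) lower. Over all genes the shares were 6.04% and 4.67%. The calls came mainly from non-muscle genes. Vim, the intermediate filament protein of fibroblasts and endothelial cells, had 898 CPM in CT TAC and 328 CPM in CT baseline (ratio 2.73), and Anxa2 (2.68), Lgals1 (2.70), S100a6, Anxa1 and Tmsb10 had ratios of similar size. Of 19 tubulins and microtubule regulators, Map1b, a microtubule-associated protein, was higher (2.71, 1.82 to 4.31) and Svbp, the partner of the tyrosine-removing vasohibins, was lower with 5 reads in CT TAC and 20 in CT baseline. The muscle tubulin genes Tuba8 (log2 ratio -0.46) and Tuba4a (-0.26) were not called.

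Genes of the extracellular matrix gave the largest number of higher calls of the themes followed, although the smaller group of stretch and stress genes had the larger share (36.1%). Of 210 listed matrix genes, 70 (33.3%) were called higher and 10 (4.76%) lower, against 6.04% and 4.67% of all genes, and together they took 2.66% of the reads in CT TAC and 1.42% in CT baseline. The fibrillar collagens had a median log2 ratio of 2.15, with 5 of 8 called higher. Col3a1, which encodes type III collagen, had 2453 reads in CT TAC (1224 CPM) and 295 in CT baseline (109 CPM), a ratio of 11.2 (9.92 to 12.7). The type I collagen genes moved as a pair, with Col1a1 at 676 CPM in CT TAC and 109 CPM in CT baseline (ratio 6.20) and Col1a2 at 673 and 107 CPM in the same order (6.24). Col5a2 (6.41) and Col5a1 (3.17), whose products nucleate collagen fibrils, were also higher, while Col5a3, Col11a2 and Col27a1 were not called. Per exon length, Col3a1 made up 54.8% (53.1 to 56.4) of the summed Col3a1 and Col1a1 level in CT TAC and 40.2% (36.3 to 44.3) in CT baseline. Of 20 other collagens, 10 were higher and 0 lower. They were led by Col8a1 (8.21-fold), a short-chain network collagen, Col14a1 (5.86-fold) and Col12a1, which associate with fibrils, and Col15a1 (5.51-fold) of the basement membrane zone. The type IV chains of the vascular basement membrane stayed close to baseline, at log2 ratios of 0.24 for Col4a1 and -0.05 for Col4a2.

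Matricellular proteins, which modulate cells rather than build the scaffold, had the highest single ratios, and 15 of 27 were called higher with 0 lower (median 1.76). Thbs4, a thrombospondin induced in stressed muscle, had 470 reads in CT TAC and 8 in CT baseline, a ratio of 68.1 (39.8 to 184). Cilp, a matrix protein made by fibroblasts, had 1113 and 31 reads in the same order (46.4, 33.9 to 71.5), Comp, a relative of the thrombospondins, 292 and 9 (38.2, 22.7 to 96.5), and Wisp2 143 and 5 (30.7, 16.1 to 120). Postn, which encodes periostin, a marker of activated fibroblasts, had 826 CPM in CT TAC and 23.7 CPM in CT baseline (34.1, 27.1 to 45.4), with fractional reads. Cthrc1, a secreted collagen-repeat protein, had 37 reads in CT TAC and 0 in CT baseline, at least 16.6-fold higher on a floor of 3 reads per library. Sparc, a collagen-binding glycoprotein, was already abundant at baseline and was 5.25-fold higher (1895 CPM in CT TAC, 361 CPM in CT baseline). Other members were flat, among them the Hippo target Cyr61 (log2 ratio 0.32), Thbs1 (0.17) and Spp1 (0.39), and Thbs2 had 85 reads in CT TAC and 221 in CT baseline (-0.94, not called).

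Among 12 small leucine-rich proteoglycans, which bind collagen and set fibril diameter, 7 were higher and 1 lower (median 1.31). Fmod, fibromodulin, had 62 reads in CT TAC and 1 in CT baseline (ratio 36.6, 14.4 to 3350). Bgn (4.59-fold), Lum (5.73-fold), Aspn and Dcn (2.13-fold) were higher, and Dcn was the most abundant of them at 2284 CPM in CT TAC and 1072 CPM in CT baseline. Chadl was the exception with 0 reads in CT TAC and 9 in CT baseline. Elastic fibre genes and the latent TGF-beta binding proteins were higher in 8 of 20 cases and lower in 1, including Ltbp2 (24.4-fold, 14.3 to 61.8), Mfap4 (15.2-fold), Mfap5 (6.63-fold), Eln (3.23-fold), Fbn1 (3.04-fold) and Fn1 (2.28-fold, fractional reads). Emilin2 was lower, at 34 reads in CT TAC and 109 in CT baseline. Of 28 genes for collagen processing, 9 were higher and 0 lower. The crosslinking enzymes differed among themselves, with Loxl3 (5.59-fold), Loxl1 (2.84-fold) and Loxl2 (2.65-fold) higher and Lox itself at 5 reads in CT TAC and 14 in CT baseline (log2 ratio -0.93, interval including 1). The collagen-folding chaperone Serpinh1 had a log2 ratio of 0.72 and the prolyl hydroxylase genes P4ha1 (0.41) and P4ha2 (-0.39) were not called.

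The enzymes that cut the matrix and their inhibitors went both ways, with 12 of 44 higher, 5 lower and a median of 0.03. Mmp2, a gelatinase, was 2.65-fold higher (2.26 to 3.14) and Timp1 5.88-fold higher with fractional reads. Serpinf1, a secreted serpin that binds collagen, was 8.65-fold higher and abundant (751 CPM in CT TAC, 86.4 CPM in CT baseline). Timp4, the inhibitor most characteristic of the heart, was lower, with 35 reads in CT TAC and 174 in CT baseline (ratio 0.276, 0.183 to 0.391). Mmp3 (20 and 86 reads in the same order), Adamts1 (54 and 194), Adamts15 and Htra1 were lower as well. Mmp9 had 0 reads in CT TAC and 1 in CT baseline. Laminins, perlecan, nidogens and integrins of the basement membrane differed little, with 2 of 30 higher (Itga9 and Itga11, a receptor for fibrillar collagen) and 1 lower (Lamb3, 2 reads in CT TAC and 35 in CT baseline). Of 23 proteoglycan and hyaluronan genes, Vcan and Chsy1 were higher and Gpc1 and Chst3 lower.

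**Figure D3:**
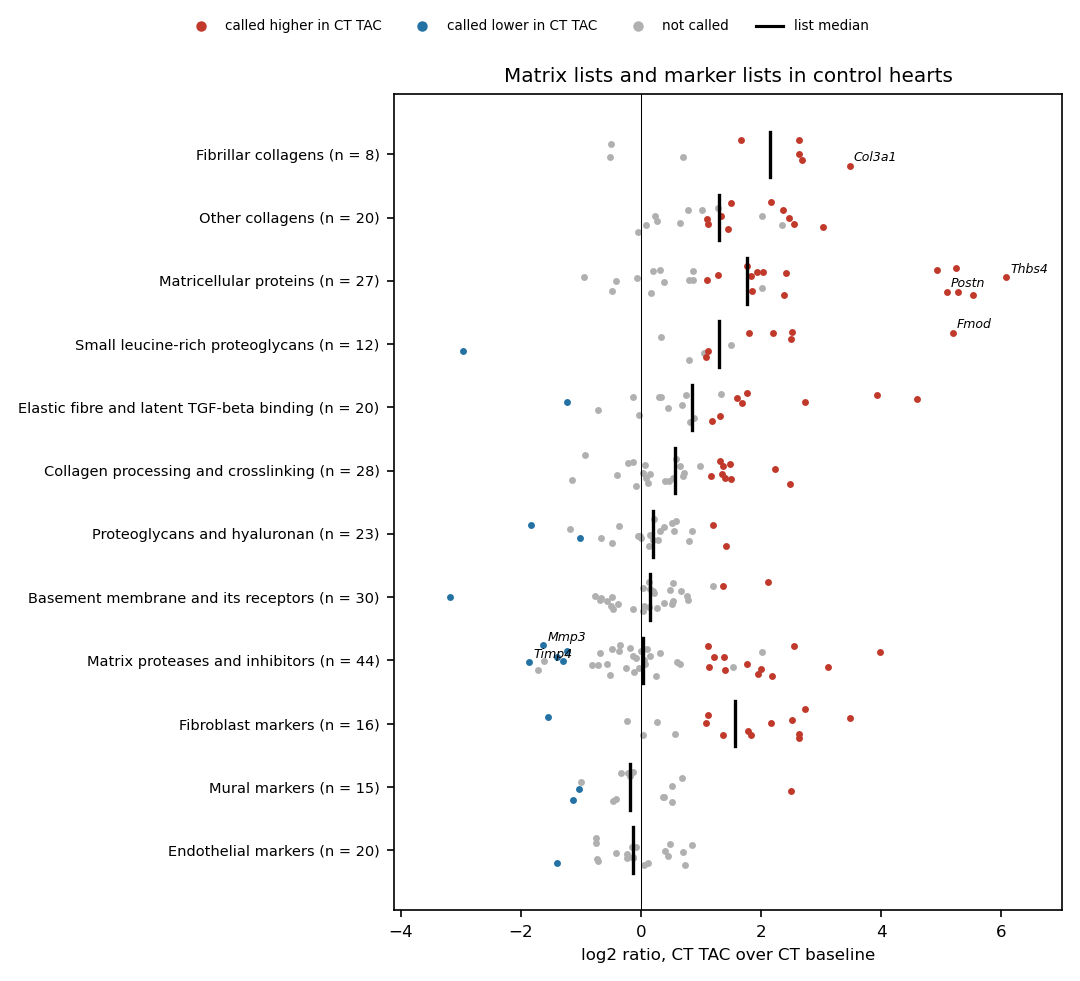
Each point is a listed gene, placed by its log2 ratio of CT TAC over CT baseline within its list, in red where called higher, blue where called lower and grey otherwise. Black bars are list medians, which run from 2.15 for fibrillar collagens and 1.76 for matricellular proteins to 0.15 for the basement membrane, and lie at -0.13 for endothelial and -0.18 for mural markers.

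Markers of fibroblasts stood beside these differences. Of 16 fibroblast markers, 11 were higher and 1 lower, with a summed level of 8288 CPM in CT TAC and 4384 CPM in CT baseline, and the list shares the collagen genes, Dcn, Lum, Mfap5 and Pcolce with the matrix lists. Markers outside the matrix lists were called higher in 4 cases and lower in 1. Tcf21, a transcription factor of resident fibroblasts, had a log2 ratio of 1.12, Pi16 2.17, Cd248 1.84 and Islr 1.79, Pdgfra (0.28), Dpt (0.58) and Gsn (-0.22) were not called, and Scara5 was lower (-1.55). The 14 markers of activated fibroblasts summed to 2166 CPM in CT TAC and 265 CPM in CT baseline, with 10 higher. Of the higher ones, Postn, Cthrc1, Cilp, Comp, Thbs4, Tnc, Ltbp2 and Wisp2 also belong to the matrix lists, so they repeat the matrix result. Meox1, a transcription factor of activated fibroblasts, had 67 reads in CT TAC and 9 in CT baseline (8.87-fold, 4.98 to 22.9). Ddah1 was higher with 14 and 7 reads in the same order, while Acta2, Lox, Fap and Runx1 were not called. By contrast, 20 endothelial markers had 0 calls higher and 1 lower (Rgcc), and 15 mural markers had 1 higher (Aspn) and 2 lower (Steap4 and Abcc9). In whole hearts, more cells of a type and more RNA per cell cannot be told apart, and the part of the cell make-up in these ratios was not tested.

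Signalling genes were called in both directions. Of 293, 31 (10.6%) were higher and 20 (6.83%) lower, against 6.04% and 4.67% of all genes. In the TGF-beta and BMP list, 7 of 41 were higher and 1 lower (median -0.06). Tgfb2, a ligand, had 23 reads in CT TAC and 9 in CT baseline (3.13-fold, 1.53 to 8.45), Bambi, a decoy receptor that dampens TGF-beta signalling, 145 and 29 (6.48-fold, 4.50 to 10.4), and Tgfbr3, the betaglycan co-receptor, was lower at 34 and 123 reads in the same order (0.379-fold, 0.247 to 0.548). Tgfb1 (log2 ratio 0.81), Tgfb3 (-0.31), Tgfbr1 (-0.80) and Tgfbr2 (-0.17) were not called. Among 34 Wnt genes, 5 were higher and 1 lower. The higher ones were secreted or intracellular antagonists, namely Sfrp2 (62 reads in CT TAC and 3 in CT baseline, 19.6-fold), Sfrp1, Frzb, Dkk3 and Nkd2 (9.66-fold), and the lower one was Dixdc1, a positive regulator (log2 ratio -2.93, fractional reads). No Wnt ligand or Frizzled receptor was called. Igf1 (3.59-fold, 1.40 to 14.2) and Igfbp7 (3.59-fold) were higher, both with fractional reads, and Irs2, an insulin receptor substrate, was lower at 19 reads in CT TAC and 82 in CT baseline. Of 39 genes of the FGF, PDGF, EGF-neuregulin and VEGF families, 2 were higher (Pdgfrl and Figf) and 3 lower (Fgf2, Pdgfd and Nrg2), with a median of 0.18.

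In the renin-angiotensin and endothelin systems, Ace, the angiotensin-converting enzyme, was 3.07-fold higher with fractional reads (241 CPM in CT TAC, 78.0 CPM in CT baseline) and Ednra, the endothelin A receptor, was lower (79.4 CPM in CT TAC, 184 CPM in CT baseline). Agtr1a (log2 ratio -0.06) and Edn1 (1.09, with 9 and 5 reads) were not called. The 4 called-lower members of the calcineurin and cardiac hypertrophy list were transcription factors, and 1 member, Rcan1, was higher. Hand2 had 36 reads in CT TAC and 139 in CT baseline (0.355-fold, 0.235 to 0.506), Nkx2-5 62 and 196 (0.430-fold), Tbx5 50 and 144 (0.472-fold), and Nfatc3 34 and 93 (0.499-fold, just past the threshold). Gata4 (0.40), Mef2c (0.17) and Srf (0.07) were not called. Adrenergic and cyclic nucleotide genes were called higher in 4 of 51 cases and lower in 4. Adra1b, an alpha-1 adrenergic receptor, Rgs2, which limits Gq signalling, Adcy6, a main cardiac adenylyl cyclase, and Pde4d were lower, with log2 ratios of -1.36, -1.72, -1.19 and -1.06. Adcy7 (2.08), Pde9a, Pde1c and Arrb1 were higher, and the beta-1 receptor gene Adrb1 (-0.10) was not called, with 11 reads in CT TAC and 16 in CT baseline.

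Hippo pathway members, the subject of the knockout in the series, differed little between the CT libraries. Of 24 components, Amot was higher and Amotl2, an angiomotin relative and YAP target, was lower at 58 reads in CT TAC and 239 in CT baseline (0.330-fold). Sav1, the floxed gene, had 71 and 133 reads in the same order (log2 ratio -0.47), Yap1 had a log2 ratio of 0.10 and Tead1 -0.24. The shares over all genes were 6.04% higher and 4.67% lower. Of 24 YAP and TEAD targets, 7 were higher and 2 lower with a median of 0.08, so the list held both directions. Its higher members Ankrd1, Ctgf, Fstl1, Tgfb2, Myof, Ccdc80 and Lhfp include 3 that also belong to the stress or matricellular lists (Ankrd1, Ctgf and Fstl1), and Cyr61, Ptpn14, Ajuba and Lats2 were not called. In the gp130 list, 2 of 21 genes were higher, among them the protease inhibitor gene Timp1, and 2 were lower, Cebpb (0.214-fold, fractional reads) and Pim1 (0.300-fold), while Osmr, Il6st, Stat3 and Socs3 were not called.

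Genes of excitation were lower more often than higher through the ion channel and junction lists, while the list of calcium release and uptake had 4 of 44 higher, 1 lower and a median of -0.02. Of 117 genes in these lists, 14 (11.97%) were lower and 7 (5.98%) higher, against 4.67% and 6.04% of all genes, and together they took 3.89% of reads in CT TAC and 5.87% in CT baseline. Atp2a2, which encodes the pump that returns calcium to the sarcoplasmic reticulum, showed the largest loss of level of any gene, with 14550 CPM in CT TAC and 28783 CPM in CT baseline. Its ratio of 0.505 (0.499 to 0.512) lay just inside the 2-fold threshold, so it was not called. Ryr2, the release channel (0.573-fold), Pln, the inhibitor of the pump (0.589-fold), Cmya5 (0.554-fold) and Hrc, a luminal calcium-binding protein (log2 ratio -0.70), were not called. Jph2, which holds the reticulum against the T-tubule, was called lower at 132 CPM in CT TAC and 320 CPM in CT baseline (0.412-fold). S100a1, which promotes calcium cycling, Fkbp1a, Micu2 and Bin1 were higher at ratios between 2.01 and 2.05, and Casq2, the calcium store protein, had a log2 ratio of 0.46. Of the pump and its inhibitor, the pump thus had the lower ratio.

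Potassium channels had the lowest median of the ion channel lists at -0.78, with 8 of 35 lower and 1 higher. Kcnk3, the background channel TASK-1, had 135 reads in CT TAC and 540 in CT baseline (0.338-fold, 0.277 to 0.407). The inward rectifier genes Kcnj2 (24 and 76 reads in the same order) and Kcnj12 (43 and 131), the delayed rectifier Kcna5 (33 and 99), and Kcnj3, Kcnn2 and Abcc9, all with fractional reads, were lower too. Lrrc52, an auxiliary subunit of calcium- and voltage-gated potassium channels, had 5 reads in CT TAC and 264 in CT baseline, a ratio of 0.0304 (0.00821 to 0.0603) and the lowest of all genes. It had 32 reads in cKO TAC and 4 in cKO baseline, so the CT baseline library was the single high one. Kcne1, the beta subunit of the slow delayed rectifier, was higher with 20 reads in CT TAC and 5 in CT baseline. Among 38 sodium channel, pump and junction genes, 5 were lower and 2 higher. The sodium channel subunit genes Scn4b, Scn4a and Scn3a and the desmosomal cadherin Dsg2 were lower, and the gap junction gene Gja1 (log2 ratio 0.31) was not called.

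Fuel metabolism was the other large group in which lower calls prevailed. Of 444 genes, 40 (9.01%) were lower and 15 (3.38%) higher, against 4.67% and 6.04% of all genes. Their share of reads was 18% in CT TAC and 20.6% in CT baseline. In the fatty acid list, 12 of 73 were lower and 2 higher, with a median of -0.45. Ces1d, a carboxylesterase that hydrolyses triglyceride, had 33.9 CPM in CT TAC and 265 CPM in CT baseline (0.129-fold, 0.0982 to 0.164). Ucp3, a mitochondrial uncoupling protein induced by fatty acids, had 14 reads in CT TAC and 96 in CT baseline (0.207-fold), and Acot2, a mitochondrial thioesterase, 90 and 578 (0.211-fold). Lipid droplet and lipolysis genes were lower as well, with log2 ratios of -1.76 for Plin4, -1.56 for Plin5 and -1.16 for Lipe. The transport enzyme gene Cpt1a, the minor form in heart, was lower (0.456-fold), while the muscle form Cpt1b was at 1048 CPM in CT TAC and 1639 CPM in CT baseline (0.640-fold, not called). Core enzymes of beta-oxidation were not called, such as Acadm (log2 ratio -0.74), Hadha (-0.56) and Acadvl (-0.44), as was the fatty acid transporter Cd36 (-0.71), and the abundant Ech1 was called lower (-1.03). Acsl5 (2.48-fold) and Cpt1c, the neuronal form, were higher.

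Transcriptional regulators of this program were also lower. Of 48 PPAR, ERR and PGC-1 genes, 6 were lower and 1 higher, with a median of -0.32. Klf15, a regulator of amino acid and lipid use, had 15 reads in CT TAC and 118 in CT baseline (0.180-fold, 0.0929 to 0.294), Ppara, the fatty acid receptor, 84 and 298 (0.382-fold), Esrrg 29 and 95 (0.419-fold) and Esrra 97 and 269 (0.488-fold). Foxo3 and Sirt1 were lower too, the second with fractional reads. Hif1a, the oxygen-regulated factor, was 2.04-fold higher with fractional reads. The window before the start of Ucp3, a known PPAR target, is shown as the one example from this group (chr7:100472741-100472990, plus strand, GRCm38.p6), with the nuclear receptor element AGGTCA in capitals on either strand.
Ucp3: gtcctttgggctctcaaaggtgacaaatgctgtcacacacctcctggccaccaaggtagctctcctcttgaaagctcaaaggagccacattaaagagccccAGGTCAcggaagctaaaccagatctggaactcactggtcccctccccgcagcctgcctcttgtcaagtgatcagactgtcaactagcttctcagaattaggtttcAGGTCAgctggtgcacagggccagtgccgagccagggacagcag
The element occurred 149 and 44 bases before the start. It was present in 13.2% of windows of genes called lower, 12.1% of those called higher and 10.9% of all listed genes' windows.

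Glucose genes differed less. Of 61, 5 were lower and 2 higher, with a median of -0.03. Pdk4, the kinase that switches off pyruvate dehydrogenase, had 117 CPM in CT TAC and 482 CPM in CT baseline (0.243-fold, 0.210 to 0.279). Pfkfb1, Slc2a12, Gys1 (the muscle glycogen synthase) and Fbp2 were lower, and the glycolytic enzyme Pgk1 (2.46-fold) and the glycogen phosphorylase Pygl were higher. Aldoa (log2 ratio 0.20), Eno3 (0.12) and Pfkm (-0.11) lay close to 0. In the TCA cycle, 0 of 28 were higher and 2 lower (Ogdhl and Gpt2), yet 24 of 28 ratios lay under 0, with a median of -0.36. Complex I had 1 lower call among 37 (Ndufb9, 0.470-fold) and a median of -0.24. The other respiratory complexes had 3 lower calls (Uqcr11, Cox6a1 and Atp5l) and 1 higher, Atpif1, the inhibitor of the ATP synthase, at 661 CPM in CT TAC and 257 CPM in CT baseline. Mitochondrial ribosomal protein genes did not share the shift, with a median of 0.14 and 2 higher and 1 lower of 76. Nampt, which makes the NAD precursor, was lower (0.385-fold) while Nmrk2 was higher. In the list of amino acid, ketone and one-carbon metabolism, 8 of 50 genes were lower and 5 higher. The lower ones include Cdo1, Prodh (0.221-fold), Maob and Ivd, which break down amino acids or amines. The higher ones include Mthfd1l, Aldh1l1, Shmt1 and Psph of serine and one-carbon metabolism, with at most 96 reads in CT TAC.

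**Figure D4:**
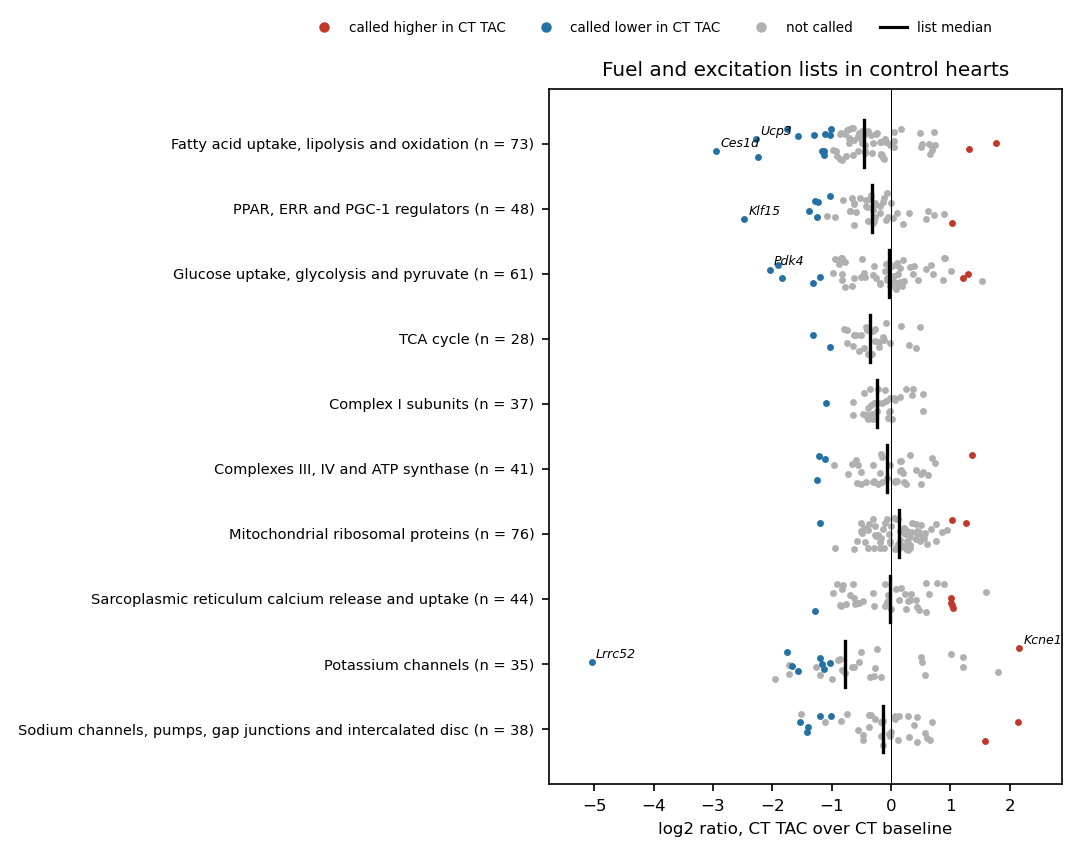
Each point is a listed gene, placed by its log2 ratio of CT TAC over CT baseline, in red where called higher, blue where called lower and grey otherwise, with list medians as black bars. The fatty acid list (median -0.45) and the potassium channels (-0.78) lie to the left of 0, and mitochondrial ribosomal proteins (0.14) lie slightly to the right.

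Protein quality control showed single genes rather than groups. Of 312 listed genes, with the cytosolic ribosomal proteins below included, 26 (8.33%) were higher and 21 (6.73%) lower, against 6.04% and 4.67% of all genes. Hspa8, the constitutive cytosolic chaperone, had 2317 CPM in CT TAC and 931 CPM in CT baseline (2.49-fold, 2.37 to 2.61), and 2 of 47 heat shock genes were higher with 0 lower. Herpud1, an endoplasmic reticulum degradation factor, was 0.266-fold (94.3 CPM in CT TAC, 355 CPM in CT baseline), while the chaperone Hspa5 had a log2 ratio of -0.16, and 2 of 56 genes of the reticulum were higher and 3 lower. Stress response targets were mixed, with Atf3, Chac1 and Asns lower and Nupr1 (3.71-fold), Gdf15 and Psph higher. In the ubiquitin and autophagy list 5 of 50 were lower, including Klhl33 (4 reads in CT TAC, 46 in CT baseline) and the autophagosome genes Map1lc3a and Gabarapl1, and 2 were higher, among them Bnip3l (2.36-fold), a mitophagy receptor. The atrophy ligase gene Trim63 had a log2 ratio of -0.62. Of 46 antioxidant genes, 5 were higher and 2 lower. Nox4, which makes hydrogen peroxide, had 23 reads in CT TAC and 2 in CT baseline, and Gpx1 was 2.53-fold higher.

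Among 81 cytosolic ribosomal protein genes, 12 were higher and 7 lower (median 0.32), while 6.04% of all genes were higher and 4.67% lower. Large opposite ratios stood side by side, such as Rpl12 (3.99-fold) and Rps27 (4.67-fold) against Rps27a (0.223-fold), Rpl30 (0.226-fold) and Rps18 (0.291-fold), although these proteins are assembled in equal numbers. Rps27 had the same reads in each library as its near-identical relative Rps27rt. Ribosomal protein genes have many near-identical copies in the genome, and how reads matching several copies were assigned is not given, so these values are reported as uncertain. The part of such copies in the ratios was not tested. Rpl3 and Rpl3l encode alternative forms of 1 ribosomal protein, the second restricted to striated muscle. Rpl3l was lower at 170 CPM in CT TAC and 369 CPM in CT baseline, with fractional reads, and Rpl3 was higher at 84.9 CPM in CT TAC and 40.8 CPM in CT baseline. Per exon length, Rpl3 made up 20.6% (17.6 to 23.8) of the pair in CT TAC and 5.41% (4.45 to 6.52) in CT baseline, and 27.6% in cKO TAC and 15.8% in cKO baseline.

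Cell cycle genes were higher in 11 of 53 cases (20.8%) and lower in 3 (5.66%), against 6.04% and 4.67% of all genes. Cdk1, the mitotic kinase, had 59 reads in CT TAC and 10 in CT baseline (7.14-fold, 4.03 to 17.4), Mki67, the proliferation marker, 60 and 16 (4.74-fold), and Birc5, Ccna2, Cenpe, Bub1b, Kif11, Ube2c, Ect2, E2f1 and Cdk6 were higher. Several of these had few reads, such as Ccna2 (9 in CT TAC and 1 in CT baseline), E2f1 (6 and 0) and Kif11 (12 and 4). The other 39 genes of the list were not called, among them Top2a (log2 ratio 0.97) and the replication genes Pcna (0.08), Mcm4 (-0.02), Mcm7 (-0.21) and Rrm1 (-0.46). Of all ratios in the list, 35 lay above 0 and 18 below. Cdkn1a, the inhibitor p21, was lower at 28.0 CPM in CT TAC and 117 CPM in CT baseline (0.243-fold), and so were Cdkn1c and Cenpf. The list summed to 620 CPM in CT TAC and 624 CPM in CT baseline. It mixes proliferation genes with inhibitors such as Cdkn1a, so the near-equal sum does not describe the proliferation genes alone. The cells in which these transcripts were made cannot be told from whole-heart RNA.

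Immediate early genes, which respond within minutes to handling and to stimuli, were lower in 6 of 29 cases and higher in 2, with a median of -0.61. Over all genes, 4.67% were lower and 6.04% higher. Jun (55 reads in CT TAC, 159 in CT baseline), Jund, Klf4, Klf2, Atf3 and Maff were lower, while Egr1 was 3.83-fold higher (2.33 to 7.32) and Egr2 had 9 reads in CT TAC and 0 in CT baseline, at least 4.04-fold higher. Fos had 1 and 7 reads in the same order and was not called. In the circadian clock list, 4 of 23 were higher and 3 lower. Dbp, a clock output factor, had 154 reads in CT TAC and 26 in CT baseline (7.64-fold, 5.24 to 12.6), and Per3 65 and 12.7 (6.35-fold, fractional reads). Arntl, the core activator BMAL1, was lower with 23 reads in CT TAC and 157 in CT baseline (0.204-fold, 0.121 to 0.307), as were Noct and Nfil3. Per1 (log2 ratio -0.22), Per2 (0.47), Nr1d1 (-0.19) and Clock (-0.48) were not called. The hour at which the hearts were taken is not in the labels, and its part in these ratios was not tested. Dbp binds D-box elements, and the window before the start of Per3 is shown because it holds that element (chr4:151044666-151044915, minus strand, GRCm38.p6), with TTATGTAA in capitals on either strand.
Per3: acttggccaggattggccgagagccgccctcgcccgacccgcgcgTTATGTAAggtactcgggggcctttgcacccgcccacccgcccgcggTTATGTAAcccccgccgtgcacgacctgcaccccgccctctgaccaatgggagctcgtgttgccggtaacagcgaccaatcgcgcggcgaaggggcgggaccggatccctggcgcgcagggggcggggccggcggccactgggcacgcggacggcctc
The element occurred 205 and 158 bases before the start. It was present in 1.13% of windows of genes called higher (8 windows), 0.992% of those called lower (6 windows) and 0.483% of those of all listed genes.

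Immune genes were called higher in 13 of 136 cases (9.56%) and lower in 6 (4.41%), against 6.04% and 4.67% of all genes. Antigen presentation genes were among the higher calls, with H2-Aa at 101 reads in CT TAC and 44 in CT baseline (3.03-fold), H2-Eb1, H2-DMa and B2m (2.13-fold), while the interferon-induced GTPase gene Gbp6 was lower at 24 and 314 reads in the same order (0.107-fold, 0.0650 to 0.156). Gbp6 had 40 reads in cKO TAC and 46 in cKO baseline, so CT baseline again held the single high value, and the neighbouring Gbp10 had the same pattern (23, 213, 27 and 28 reads in CT TAC, CT baseline, cKO TAC and cKO baseline). Among chemokine genes, Ackr4 (10.9-fold), a scavenging receptor, Cxcl16 (5.82-fold), Il13ra1, Cxcr4 and Ccr2 were higher and Ccl6, Ccl9 and Il17ra lower. Complement and coagulation genes were mostly not called, and the complement inhibitor genes Cd55 and Cd59a were called in opposite directions, Cd55 higher and Cd59a lower. Macrophage markers were higher in 6 of 24 cases and lower in 0 (median 0.62), with a summed level of 782 CPM in CT TAC and 536 CPM in CT baseline. Adgre1 (log2 ratio 1.10), Fcgr1, Fcer1g, Ms4a7, Aif1 and Ccr2 were higher, the last 2 with few reads. The better counted Lyz2 (0.64), Csf1r (0.61) and C1qb (0.40) were not called, nor was Cd68 (0.97). Lyve1 (-0.96) and Cd163 (-0.87), which mark resident macrophages, were not called, nor were Mrc1 (0.13) and Mertk (0.29).

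Markers of other cell types were low or differed little. Of 17 lymphocyte markers, 2 were in the table, both with 0 reads in CT baseline. Neutrophil and mast cell markers summed to 20.96 CPM in CT TAC and 31.0 CPM in CT baseline, with S100a9 and Retnlg lower and Kit higher. None of the erythroid markers was called. The beta-globin gene Hbb-bs had 727 reads in CT TAC and 1483 in CT baseline, and Hbb-bt 698 and 1399 in the same order, and the rows Hbb-b1 and Hbb-b2 repeat these reads under other names. Of 11 atrial markers, 6 were in the table, and Myl7, Sln, Bmp10, Mybphl and Dhrs9 were not. The 6 listed included 1 lower (Kcnj3) and 0 higher, with Myl4, the atrial light chain, at 10 reads in CT TAC and 7 in CT baseline. Their summed level was 2009 CPM in CT TAC and 1194 CPM in CT baseline. Most of it came from Pam, with 3915 reads in CT TAC and 2991 in CT baseline (log2 ratio 0.82, not called). The part of atrial tissue in the Nppa values was not tested. Skeletal muscle genes apart from Acta1 and Ckm had at most 26.5 reads in CT TAC, the value of Myl1. The 4 listed X-linked genes of the sex list had log2 ratios between -0.11 and 0.12.

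Set beside the cKO pair, which shares no library with the CT pair, the CT pair held more called genes. In the cKO pair 809 genes (6.52%) were called, 458 higher (3.69%) and 351 lower (2.83%). Of the 750 genes higher in CT, 164 were higher in the cKO pair (21.9% of the CT calls and 35.8% of the cKO calls) and 11 lower, and their median log2 ratio was 1.48 in the CT pair and 0.56 in the cKO pair. Of the 580 genes lower in CT, 68 were lower in the cKO pair (11.7% and 19.4%) and 14 higher, with medians of -1.36 in the CT pair and -0.33 in the cKO pair. Both sets were chosen by their CT ratios, so the larger medians in the CT pair follow in part from that choice. Nppa had 6487 CPM in cKO TAC and 2035 CPM in cKO baseline, so the CT baseline library, at 129 CPM, was the lowest of the 4. Ankrd1 had 8624 CPM in cKO TAC and 9962 CPM in cKO baseline, close to the 8081 CPM of CT TAC, and was not called in the cKO pair (log2 ratio -0.21). Col3a1 had similar levels in the TAC libraries, 1224 CPM in CT TAC and 1121 CPM in cKO TAC, and differed more at baseline, 109 CPM in CT baseline and 464 CPM in cKO baseline.

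Some called genes had 1 CT library apart from the other 3 libraries. In 198 of the 750 genes higher in CT TAC (26.4%), the CT baseline value lay at least 2-fold below each of the other 3 libraries, and in 54 (7.2%) the CT TAC value lay at least 2-fold above each of them. Of the 580 lower genes, the CT TAC value lay at least 2-fold below the other 3 libraries in 118 (20.3%), and the CT baseline value at least 2-fold above them in 66 (11.4%). Both cKO values lay between the 2 CT values in 385 of the higher genes and 359 of the lower ones, and these can overlap with the counts above. The genes were chosen by the CT pair, and only the CT libraries were counted as standing apart. These counts describe where each library stood. The genotype of the cKO libraries and the mouse-to-mouse spread cannot be told apart from them.

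**Figure D5:**
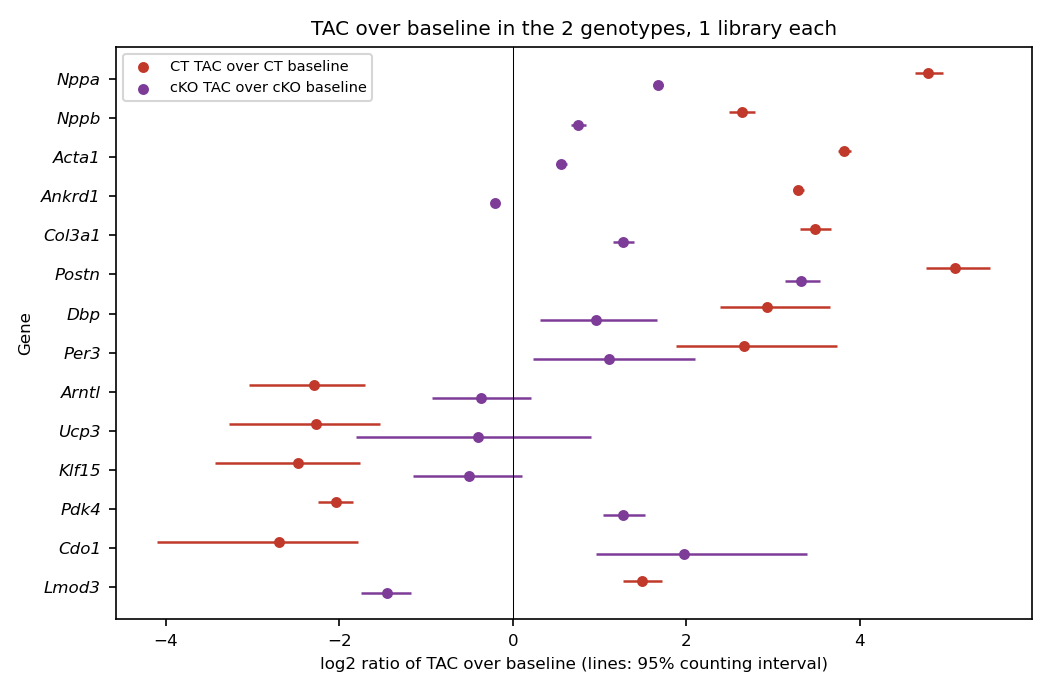
The log2 ratio of TAC over baseline for 14 genes in the CT pair (red, upper point) and the cKO pair (purple, lower point), with lines for the 95% counting interval. Nppa, Acta1, Ankrd1 and Col3a1 have higher ratios in the CT pair than in the cKO pair, Arntl, Ucp3 and Klf15 have ratios below 0 in both, and Pdk4, Cdo1 and Lmod3 lie on opposite sides of 0.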

How the data were processed

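RNA from whole hearts was sequenced in 4 libraries, 1 per group, and the CT TAC and CT baseline libraries were compared. The authors deposited 1 table per library with log2 CPM values of 12408 genes, in which the lowest value is -1.03. CASAVA, HISAT2, edgeR and the mm10 build are named in the submitters' processing notes. The tool that counted reads is not given in the sources used here. Reads were recovered from the deposited log2 CPM values by removing the added 0.489 CPM and dividing by the CPM of 1 read (0.499 in CT TAC and 0.371 in CT baseline), and 88.9% of CT TAC and 88.6% of CT baseline values came out whole within 0.01 of a read. The ratio is that of the deposited values, so the added amount understates the differences of low genes. Its 95% interval is an exact conditional (Clopper-Pearson) interval of the rounded reads given the library sizes. A gene at 0 reads in 1 library was compared with a floor of 3 reads per library (1.50 CPM in CT TAC and 1.11 CPM in CT baseline), and the ratio is then given as at least that value.

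Genes were named from 67 lists (1793 distinct genes in the table), with the 15 highest and 15 lowest interval bounds and the 10 largest gains and losses of CPM over all genes. Some genes that this rule names are not reported here. The lists, the named pairs and the genes followed were chosen with earlier results of these data known. Exon lengths, of all annotated exons of a gene merged, came from GENCODE M21 and promoter windows from RefSeq (GRCm38.p6). The calculations were made with Python 3.11.15, numpy 2.4.6, pandas 2.3.3, scipy 1.17.1 and matplotlib 3.10.9, and the interval and the recovery of reads were tested on simulated data. Alternatives were no added read, scaling to total reads, a minimum of 5 CPM, a 99% interval, thresholds of 1.5-fold and 4-fold, and genes with whole reads only.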

Additional observations from a re-analysis of the deposited data

Results flagged for a closer look

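For 7 of the genes followed, the CT and cKO pairs were called in opposite directions, and the difference between the pairs was not tested. The value given is the log2 ratio in the CT pair minus that in the cKO pair. Lrrc52 differed by -7.65, with 5 reads in CT TAC, 264 in CT baseline, 32 in cKO TAC and 4 in cKO baseline, so CT baseline was the single high library. Gm20594, a predicted gene, differed by -5.40, with 251, 4594, 1871 and 532 reads in the same order. Cdo1, cysteine dioxygenase, differed by -4.67, with 8, 77, 38 and 8 reads. Pdk4 differed by -3.31, with 234, 1299, 534 and 196 reads, so that the baseline libraries lay further apart than the TAC libraries. Rps24, a ribosomal protein gene with fractional reads, differed by -2.22.

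Lmod3 differed by 2.94, with 522 reads in CT TAC, 250 in CT baseline, 141 in cKO TAC and 344 in cKO baseline. Pdia6, a disulfide isomerase of the endoplasmic reticulum, differed by 2.36, with 139, 92, 72 and 164 reads in the same order.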

How the results depend on the processing

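No paired analysis was possible because each group holds 1 library. For the same reason no library can be left out, and no ratio has a replicate check. Of 750 genes higher and 580 lower, the counts became 1415 and 1217 at 1.5-fold, and 185 and 105 at 4-fold. With no added read they were 783 and 589, scaled to total reads 762 and 572, with at least 5 CPM 597 and 485, with 99% intervals 583 and 446, and with whole reads only 647 and 508. Of the list medians, that of the fibrillar collagens became 2.63 both with at least 5 CPM and with whole reads only, that of the thin filament 0.34 with whole reads only, and that of the adipocyte markers -0.23 with at least 5 CPM, where fewer genes were left in each list. Of 1805 named genes, 8 passed the threshold and 1 (Nrg2) no longer did with no added read, and 2 passed and 2 (Dsg2 and Nfatc3) no longer did when scaled to total reads, which moves all ratios by 0.0084. No direction reversed under these settings. Depth limits low genes: 162 genes had 0 reads in CT TAC and 115 in CT baseline, and 755 were at least 2-fold apart with an interval that included 1.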

Other observations

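A set of 21 genes known to respond to glucocorticoids or fasting was looked up after the values of several of them had been seen. In the CT pair, 12 were lower, 0 higher and 9 not called. Over all genes 4.67% were lower, but a set looked up after values were seen cannot be weighed against that share. Fkbp5, a co-chaperone of the glucocorticoid receptor, had 17.0 CPM in CT TAC and 49.7 CPM in CT baseline, with 46.8 CPM in cKO TAC and 33.6 CPM in cKO baseline. Zbtb16, a zinc finger transcription factor, had 80.9 CPM in CT TAC and 271 CPM in CT baseline, with 88.6 CPM in cKO TAC and 95.4 CPM in cKO baseline, so CT baseline was the single high library. Map3k6 had 18.5 CPM in CT TAC and 75.6 CPM in CT baseline, and CT TAC was the single low library, with 78.3 CPM in cKO TAC and 39.8 CPM in cKO baseline. Other members did not follow. Tsc22d3 had 100 CPM in CT TAC and 107 CPM in CT baseline, and Sgk1 248 CPM in CT TAC and 163 CPM in CT baseline. The hour of sampling and the feeding state are not in the labels, and their part in these values was not tested.

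Some genes outside the lists, also chosen after their values were seen, had large ratios. Pamr1, a secreted protease-like protein, had 134 reads in CT TAC and 11 in CT baseline. Mgp, matrix Gla protein, had 2248 reads in CT TAC and 838 in CT baseline (log2 ratio 1.85). Tfrc, the transferrin receptor, had 208 reads in CT TAC and 65 in CT baseline (log2 ratio 2.09), and a log2 ratio of -1.09 in the cKO pair. Atp1a4, a sodium pump subunit, had 92 reads in CT TAC and 17 in CT baseline (2.77), and a log2 ratio of -2.14 in the cKO pair. For both genes the difference between the pairs was not tested.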
